A study of Saccharomyces cerevisiae with 45 samples.

Results

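The libraries described here followed the first 10 min after purified spores of budding yeast were transferred to rich medium with DMSO. They were chosen by their labels alone: 3 libraries taken at 10 min and 3 taken at 0 min, 6 of the 45 libraries of the series. The spores came from diploid yeast of the SK1 background (ho::LYS2 ura3 leu2 trp1 his3 lys2), were freed from asci by zymolyase and sonication, and were suspended in YPD (yeast extract, peptone and glucose) at 30 °C with the solvent DMSO in the volume used for the drug. Replicates carry the letters A, B and C at each time point. Purified spores were also sequenced before transfer, and spores were followed in parallel with 2000 nM rapamycin, an inhibitor of the kinase complex TORC1. The spore libraries and the 0 and 10 min libraries of the rapamycin arm were used for comparison. All libraries were made from poly-A enriched RNA with a strand-specific kit, so the values are relative amounts of polyadenylated RNA in a mixed population, and fewer cells with a transcript cannot be told apart from less of it per cell.

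A yeast spore is a dormant haploid cell with a thick wall, rich in trehalose and in proteins that protect against heat, drying and oxidation. Germination begins when a fermentable sugar reaches the spore. In growing yeast, glucose acts through the transporters and sensors of the HXT family, through the Snf1 kinase and the repressor Mig1, and through Ras and protein kinase A (PKA), which releases growth genes from repression and holds back the stress activators Msn2 and Msn4. TORC1 conveys the supply of nitrogen. Targets of these pathways include the genes that build ribosomes, those for nitrogen uptake, and those for stress protection and for the use of poor carbon sources.

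The 6 libraries held between 9471861 and 11320139 counts, and the values below are CPM, a gene's count relative to all counts of its library, scaled with the trimmed mean of M values (TMM). Counts were spread over more genes at 10 min: the 10 most abundant genes took 10.7 to 12.3% of the counts at 0 min and 5.92 to 7.37% at 10 min. Of 34 tested markers of late sporulation and of the spore wall, 7 were called higher (20.6%) and 2 lower (5.88%), against 13.8% and 5.91% of all genes. Their summed level was 11461 to 15645 CPM at 0 min and 4730 to 6607 CPM at 10 min. Most of it came from SPS100, a protein of the spore wall (12511 ± 2088 CPM at 0 min, SD, n = 3). DIT1 and DIT2, which make the dityrosine of the spore wall, were low at 0 min (12.6 ± 2.43 and 1.29 ± 0.228 CPM). Of 18 markers of dividing cells 5 were called higher (27.8%) and none lower. The sum of the 18 was 716 to 746 CPM at 0 min and 921 to 987 CPM at 10 min. This rise came from AMN1 and CDC20, and the other 16 markers together had 666 CPM at 0 min and 513 CPM at 10 min. The mitotic cyclin CLB2 was at 8.61 ± 3.26 CPM and then at 8.18 ± 0.562 CPM. The part of either marker set in the results below was not tested.

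The transcriptome of the spores had barely moved at 0 min and had moved widely at 10 min. Between the spore libraries and the DMSO 0 min libraries the median absolute difference over 5836 genes was 0.13 on the log2 scale and 14 genes differed by more than 2-fold in the group means. Between 0 and 10 min it was 0.49, and 1044 genes passed 2-fold. With edgeR's quasi-likelihood test, 1149 of the 5836 genes tested (19.7%) were called, which required an adjusted p under 0.05 and at least a 2-fold change. Of these, 804 were higher at 10 min (13.8% of the genes tested) and 345 were lower (5.91%). The rises reached further than the falls, with 184 genes at least 4-fold higher and 11 at least 4-fold lower. At any fold the same test passed 2201 genes in the upward and 2053 in the downward direction. The 3 libraries of one time did not overlap with the 3 of the other for 4439 genes (76.1%). The labels do not say whether A, B and C were separate sporulation cultures, so the p-values measure the spread between these libraries.

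The direction of the change followed the level that a transcript had in the spore. The tested genes were ranked by their level in purified spores and cut into 5 groups of equal size. In the lowest group, 33.8% were called higher and 2.23% lower, and the median log2 change was 0.61. In the highest group, 1.11% were called higher and 18.2% lower, with a median of −0.53, and the medians of the groups between lay in order. Genes called higher had a median of 22.5 CPM at 0 min and 68.0 CPM at 10 min, while genes called lower had medians of 341 and 141 CPM. Part of the share in the lowest group follows from the filter on low counts: 66 genes passed it with no 0 min library over 1 CPM, and 55 of them were called higher. Without such genes 30.9% of the lowest group were called higher.

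**Figure D1:**
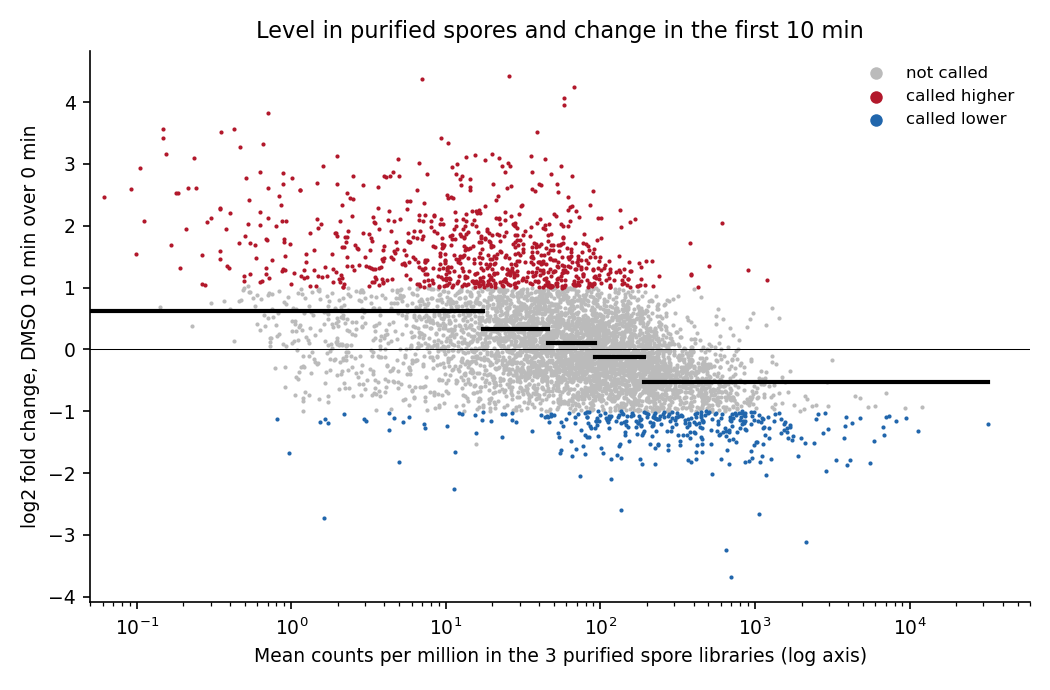
Each point is a gene, placed by its mean CPM in the 3 purified spore libraries (log axis) and by its log2 fold change from 0 to 10 min with DMSO. Red points were called higher and blue points lower, and black bars give the median of each of 5 equal groups by spore level, from 0.61 in the lowest to −0.53 in the highest. The 2 tested genes without reads in spores are not drawn.

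All of these changes are relative to the other transcripts of the same library, since no spike-in is described. Scaled by library size alone, the median of all genes moved from 0.02 to 0.35 on the log2 scale, and 1321 genes were then called higher and 112 lower, so that rises made up 92.2% of the calls in place of 70.0%. Of the 1149 calls 916 remained and 0 changed sign. Directions are therefore given relative to the median gene, and a smaller fall can lose its call under this scaling.

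The 8 largest rises and 8 largest falls were chosen among called genes without overlap between the times, so their lack of overlap was set by the choice. Of all genes tested 76.1% had no overlap. The rises included enzyme, transporter and RNA helicase genes. GDH1 (YOR375C, chromosome XV, 1041678 to 1043042 in the R64 assembly), which encodes the glutamate dehydrogenase that joins ammonium to 2-oxoglutarate, stood at 52.6, 34.0 and 27.0 CPM in replicates A, B and C at 0 min and at 957, 853 and 640 CPM at 10 min. Every 10 min library lay far above every 0 min library, and the fitted rise was 21.5-fold (log2 4.42 ± 0.24, SE; adjusted p = 9.4e-08, edgeR's quasi-likelihood test). OYE2 (YHR179W, chromosome VIII), an NADPH oxidoreductase of the old yellow enzyme family, rose from 16.6, 7.67 and 7.7 CPM to 291, 194 and 192 CPM. PDR12 (YPL058C, chromosome XVI), a plasma membrane pump for weak organic acids, rose from 55.9, 81.4 and 72.7 CPM to 1747, 1191 and 1029 CPM. In each of these genes replicate A was the highest library at 10 min. ATO2 (YNR002C, chromosome XIV), a protein linked to ammonium export, rose from 130, 85.6 and 82.7 CPM to 1752, 1767 and 1491 CPM. GAP1 (YKR039W, chromosome XI, 515063 to 516871), the general amino acid permease, rose from 63.2, 59.0 and 75.3 CPM to 1058, 1128 and 869 CPM, a log2 change of 3.95 ± 0.14. DBP2 (YNL112W, chromosome XIV, 413639 to 416281), an RNA helicase of ribosome production and mRNA export, rose from 42.2, 49.3 and 44.9 CPM to 568, 474 and 510 CPM, and its log2 change of 3.51 ± 0.10 had the smallest standard error of the 8 largest rises. BSC1 (YDL037C), an uncharacterized gene, and YBR238C, a nuclear gene for a mitochondrial protein, were raised by 3.42 and 3.33 on the log2 scale. Of the windows of read length in BSC1, 9.47% occur elsewhere in R64, so part of its reads may be shared.

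The 8 largest falls included genes of stress, energy metabolism and the cell wall. RTC3 (YHR087W, chromosome VIII, 280820 to 281155), a small stress-induced protein, stood at 545, 733 and 898 CPM at 0 min and at 44.4, 44.2 and 80.6 CPM at 10 min, so that every 10 min library lay far below the lowest 0 min library (log2 −3.69 ± 0.25; adjusted p = 3.5e-07, edgeR's quasi-likelihood test). RGI2 (YIL057C, chromosome IX), a protein of energy metabolism under respiratory conditions, fell from 615, 566 and 896 CPM to 59.1, 68.7 and 91.9 CPM. TMA10 (YLR327C, chromosome XII), a ribosome-associated protein, fell from 2086, 1954 and 2548 CPM to 235, 236 and 294 CPM. All of them lost most of their level in each replicate. SPG1 (YGR236C, chromosome VII), a gene of stationary-phase survival, fell by 2.66 on the log2 scale from 1286, 1334 and 1268 CPM. CWP1 (YKL096W), a cell wall mannoprotein, fell by 2.60 and PRM10 (YJL108C), a pheromone-regulated membrane protein, fell by 2.09. MPC3 (YGR243W), the subunit of the mitochondrial pyruvate carrier made in respiring cells, fell by 2.03, from 946, 1033 and 1290 CPM to 251, 265 and 286 CPM. The remaining one, SCR1, is the noncoding RNA of the signal recognition particle. It varied between the 0 min libraries (38.2, 112 and 40.4 CPM) and is not expected to carry a poly-A tail.

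**Figure D2:**
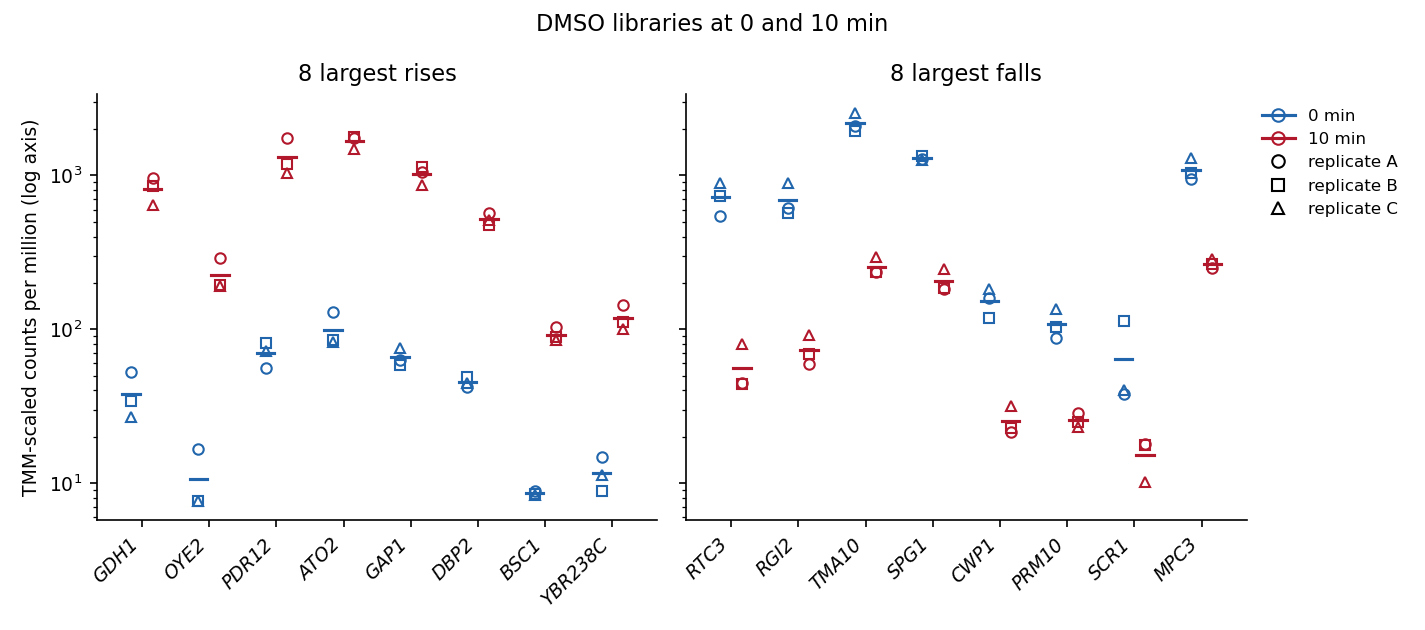
CPM (log axis) of the 8 largest rises and the 8 largest falls in each DMSO library at 0 min (blue) and 10 min (red), with a symbol for each replicate and a bar for the mean. Only called genes whose 0 min and 10 min libraries do not overlap were eligible. On the log axis SCR1 has the widest spread at 0 min, from 38.2 to 112 CPM.

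Of the lists described here, the one on ribosome biogenesis, also the largest, had the most members called, all in one direction. Some lists had a larger share called in one direction, among them the rRNA processing (68.8%) and stress (66.7%) genes displayed by the study. Of 139 tested ribosome biogenesis factors, 74 were called higher (53.2%, against 13.8% of all genes) and 0 lower, with a median log2 change of 1.03 against 0.02 for all genes. Under the other settings, apart from library size scaling, which called more, any fold and the test against 2-fold, 70 to 77 of them were called. NOP58 (YOR310C, chromosome XV), a core protein of the box C/D particles that methylate rRNA, rose from 29.2, 24.4 and 28.7 CPM to 253, 201 and 214 CPM. DHR2 (YKL078W, chromosome XI), a helicase of small-subunit processing, rose from 7.96, 7.55 and 8.52 CPM to 66.6, 48.9 and 56.2 CPM. In both genes the 3 libraries at 0 min lay close together and all 10 min libraries were well above them. The class of rRNA processing genes that the study displayed had 11 of 16 members higher and 0 lower. The study took this class from an earlier report on germinating spores.

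RNA polymerase I, which transcribes the rRNA genes, followed with 7 of 16 tested members higher (43.8%, against 13.8% of all genes) and 0 lower. RRN11, a subunit of its core initiation factor, rose by 2.58 on the log2 scale, and the subunits RPA43 and RPA49 were raised by 2.5 and 1.49. Among tRNA synthetases and translation factors 13 of 57 were called higher (22.8%) and 0 lower. FRS1, a subunit of phenylalanyl-tRNA synthetase, rose from 30.9, 23.8 and 29.3 CPM to 226, 183 and 207 CPM. The elongation factor gene YEF3 rose from 720, 562 and 722 CPM to 3043, 2569 and 2694 CPM.

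Genes for the ribosomal proteins themselves had not moved as a group at 10 min. Of 137 tested, 4 were called higher (2.92%, against 13.8% of all genes) and 1 lower (0.73%, against 5.91%). Their median log2 change of 0.01 lay at the median of all genes. One called member, RPS9A, stood apart with a rise from 41.4, 28.2 and 39.1 CPM to 234, 208 and 242 CPM (log2 2.65 ± 0.13). RPL9A rose by 1.88 from 13.8, 17.8 and 22.3 CPM. RPS29A and RPL41A passed narrowly, at 1.11 and −1.14, and the call of RPS29A was lost without the 0 min replicate A or the 10 min replicate C and that of RPL41A without the 10 min replicate A. Most of these genes belong to duplicated pairs whose shared stretches can move reads between copies.

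The promoters of the ribosome biogenesis genes carry a pair of short elements known from growing cells, PAC (GATGAG) and RRPE (AAAAATTT). Both were searched on both strands in a window of 300 bases that ends 100 bases before the start codon in R64, the assembly of strain S288C, which may differ from SK1, and the stretch next to the start codon was left out. PAC was found in 90 of the 139 ribosome biogenesis promoters (64.7%) and in 18.1% of the promoters of all genes tested, and RRPE in 78.4% and 15.7%. Both were present in 52.5% of the ribosome biogenesis promoters and in 5.32% of all. Of the promoters of all genes called higher, 27.7% held PAC and 27.8% held RRPE, and of those of genes called lower 17.3% and 7.60%. The windows of the largest risers NOP58 (chrXV:898461-898760, minus strand) and DBP2 (chrXIV:413239-413538, plus strand) are shown because they hold both elements, and that of DHR2 (chrXI:288445-288744, plus strand) because it holds neither although the gene rose 7.14-fold. Each is written 5′ to 3′ toward the gene, with PAC, RRPE and their reverse complements in capitals.
NOP58: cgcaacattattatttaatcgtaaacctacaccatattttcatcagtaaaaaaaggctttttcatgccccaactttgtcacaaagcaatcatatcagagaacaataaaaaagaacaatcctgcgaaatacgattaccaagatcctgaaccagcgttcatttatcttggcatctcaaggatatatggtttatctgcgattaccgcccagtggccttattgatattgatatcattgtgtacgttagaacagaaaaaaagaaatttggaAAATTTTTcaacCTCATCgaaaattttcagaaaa
DBP2: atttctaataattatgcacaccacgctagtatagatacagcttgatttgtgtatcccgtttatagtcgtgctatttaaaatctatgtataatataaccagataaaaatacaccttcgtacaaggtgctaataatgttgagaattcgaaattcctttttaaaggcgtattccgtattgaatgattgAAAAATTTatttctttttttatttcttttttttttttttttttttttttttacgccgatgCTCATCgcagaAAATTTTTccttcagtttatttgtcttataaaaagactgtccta
DHR2: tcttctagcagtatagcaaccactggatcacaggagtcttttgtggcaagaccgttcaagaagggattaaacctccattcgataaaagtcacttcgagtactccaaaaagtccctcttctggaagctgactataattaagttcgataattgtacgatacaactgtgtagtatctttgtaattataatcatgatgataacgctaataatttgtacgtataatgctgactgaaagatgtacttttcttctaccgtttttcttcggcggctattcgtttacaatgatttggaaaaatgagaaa
In NOP58 the PAC element begins 122 bases and the RRPE element 134 bases before the start codon, side by side on the reverse strand. In DBP2 the PAC element begins at 155 bases and the RRPE elements at 215 and 144 bases. These matches describe letters in a window and not bound sites, and the elements were not tested as a cause.

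About 1 in 3 genes of nitrogen uptake and of amino acid synthesis were called higher. Of 39 tested permeases and genes known to be repressed by good nitrogen sources, 14 were called higher (35.9%, against 13.8% of all genes). Those called lower were 2 (5.13%, against 5.91% of all genes). Besides GAP1, the allantoinase gene DAL1 (YIR027C, chromosome IX) rose from 2.56, 1.42 and 2.22 CPM to 21.1, 17.6 and 16.2 CPM and the ammonium permease gene MEP3 from 2.36, 1.65 and 2.33 CPM to 19.3, 19.0 and 12 CPM. These were low transcripts at 0 min, and every 10 min library exceeded every 0 min library. The dicarboxylic amino acid permease gene DIP5 rose from 53.2, 35.3 and 45.6 CPM to 342, 273 and 195 CPM. The 2 called lower, a share near that of all genes, were the arginase gene CAR1 (−1.59) and the proline oxidase gene PUT1 (−1.24). In amino acid synthesis 18 of 53 genes (34.0%, against 13.8% of all genes) were higher and 0 lower, with a median log2 change of 0.57. After GDH1 the largest were LEU9 of leucine synthesis (2.19) and ARG3 of arginine synthesis, which rose from 183, 186 and 188 CPM to 838, 848 and 721 CPM.

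The element bound by the GATA factors of nitrogen repression (GATAAG, either strand) occurred in 57.5% of the 40 promoters of the permease and nitrogen list and in 13.9% of all genes tested, and 37.5% against 1.35% held more than one. The windows of GAP1 (chrXI:514663-514962, plus strand) and DAL1 (chrIX:407743-408042, minus strand), the largest rises of that list, are shown with the element and its reverse complement in capitals.
GAP1: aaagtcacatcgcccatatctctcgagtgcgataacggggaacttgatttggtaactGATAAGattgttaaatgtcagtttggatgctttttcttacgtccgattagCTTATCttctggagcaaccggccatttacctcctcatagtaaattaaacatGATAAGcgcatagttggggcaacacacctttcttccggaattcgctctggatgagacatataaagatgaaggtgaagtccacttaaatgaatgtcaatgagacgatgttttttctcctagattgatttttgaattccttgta
DAL1: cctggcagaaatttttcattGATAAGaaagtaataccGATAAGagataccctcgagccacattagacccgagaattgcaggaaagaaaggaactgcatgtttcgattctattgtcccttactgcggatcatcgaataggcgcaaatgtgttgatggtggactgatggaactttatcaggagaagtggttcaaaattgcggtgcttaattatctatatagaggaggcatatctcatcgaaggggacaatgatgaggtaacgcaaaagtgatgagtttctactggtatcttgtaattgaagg
The matches in GAP1 begin 343, 293 and 242 bases before the start codon and those in DAL1 at 380 and 363 bases. In the list on amino acid synthesis and GCN4 67.9% of promoters held TGACTC, the site of the activator Gcn4, against 8.78% of all genes tested. The shares in both lists cover all members, called or not, and so do not describe the genes that rose. The nitrogen list holds genes known for this repression, so a high share of GATAAG follows in part from its choice. Over all genes called higher, GATAAG occurred in 14.1% of promoters and TGACTC in 11.4%.

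Other biosynthetic and uptake lists were split. In purine and pyrimidine synthesis 9 of 32 genes were higher (28.1%, against 13.8% of all genes) and 0 lower. Among them were the CTP synthase gene URA7, which rose from 7.47, 12.6 and 13.8 CPM to 99.3, 74.6 and 94.2 CPM, and the GMP synthase gene GUA1 (log2 2.30). In sulfate assimilation and methionine synthesis 3 of 26 were higher (11.5%) and 1 lower (3.85%, against 5.91% of all genes), with SAM1, an S-adenosylmethionine synthetase gene, at 1.45. Phosphate transporters went in opposite directions. The proton-coupled transporter gene PHO84 rose from 10.2, 9.08 and 14.7 CPM to 42.5, 32.4 and 34.9 CPM, whereas the sodium-coupled transporter gene PHO89 fell from 5909, 6145 and 5298 CPM to 1521, 1790 and 1574 CPM (log2 −1.83 ± 0.11). Of 25 genes of iron, zinc and copper uptake 3 were higher and 0 lower, with 7 higher without the 0 min replicate A and 10 higher when scaled by library size. Of the 25 tested genes of ergosterol synthesis, 1 was higher (ERG4, the last enzyme of the pathway, 2.02) and 2 were lower.

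Transcripts that bring glucose into the cell moved in both directions, by isoform. Of 17 tested genes of glucose uptake and phosphorylation, 9 were called higher (52.9%, against 13.8% of all genes) and 2 lower (11.8%, against 5.91%). Their median log2 change was 1.14. HXK2, the hexokinase of growth on glucose, rose from 44.8, 19.2 and 32.9 CPM to 300, 209 and 256 CPM, while GLK1, the glucokinase, fell from 881, 942 and 1269 CPM to 292, 361 and 409 CPM (log2 −1.54 ± 0.16). GLK1 overlaps the open reading frame YCL042W on the same strand over 106 bases. HXK1, the other hexokinase, had a log2 change of −0.93 and was not called. Among the transporters, HXT2 of high affinity rose from 209, 161 and 135 CPM to 892, 865 and 654 CPM, and the low-affinity transporter gene HXT3 reached 47.2, 66.7 and 51.4 CPM from 23.6, 31.3 and 20.1 CPM. Without the 10 min replicate B the call of HXT3 was lost. HXT5, the transporter of resting cells and spores, fell from 9104, 9136 and 9745 CPM to 3861, 4332 and 4344 CPM, and its log2 change of −1.16 ± 0.11 lost the call under library size scaling. HXT4 and HXT8 were also higher, at 1.39 and 2.87. HXT9, HXT13 and HXT17 were called higher at mean levels under 5 CPM, and 46.9%, 7.46% and 6.83% of their windows of read length occur more than once in R64. In this list 6 to 10 genes were called higher when single libraries were left out, the fewest without the 10 min replicate B. Of the glucose sensors, RGT2 rose from 56.3, 44.0 and 52.2 CPM to 291, 304 and 303 CPM, and SNF3 had a log2 change of −0.38 that was not called.

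Regulators of glucose signalling and glucose repression moved in both directions. Of 26 tested, 7 were called higher (26.9%, against 13.8% of all genes) and 2 lower (7.69%, against 5.91%). At any fold 10 passed upward and 9 downward, and the median log2 change was 0.03. The repressor gene MIG1 rose from 148, 113 and 102 CPM to 402, 400 and 398 CPM, and its relative MIG2 from 5.90, 3.42 and 4.09 CPM to 16.3, 16.7 and 14.7 CPM. CYC8, a subunit of a general corepressor, rose by 1.34 on the log2 scale, while TUP1 of the same corepressor had a log2 change of −0.65 and was not called. STD1 and YCK2, which act between the glucose sensors and the HXT genes, rose by 1.92 and 1.98. HAP4, the activator of respiratory genes, rose from 66.9, 29.8 and 26.5 CPM to 275, 245 and 238 CPM, with replicate A the highest at 0 min, and ERT1, a regulator of the switch between ethanol and glucose use, rose by 2.18. CAT8 and GSM1, regulators of genes for poor carbon sources, were lower at −1.10 and −1.03, and both calls were lost under library size scaling and without single libraries, the 0 min replicate B for CAT8 and the 10 min replicate B for GSM1.

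In the Ras and PKA pathway, genes that restrain the pathway and genes that carry it were both among those lower. Of 24 tested genes, 4 were called higher (16.7%, against 13.8% of all genes) and 7 lower (29.2%, against 5.91%). The median log2 change was −0.43. IRA1 and IRA2, which switch Ras off, fell by 1.25 and 1.27 on the log2 scale, the latter from 1522, 1799 and 1643 CPM to 722, 693 and 639 CPM. BCY1, the inhibitory subunit of PKA, fell by 1.02 and YAK1, a kinase opposed by PKA, by 1.08. Both calls were lost without the 10 min replicate A, and that of BCY1 also without the 0 min replicate C. The catalytic subunit genes were split: TPK2 fell by 1.26, while TPK3 rose from 42.5, 36.8 and 39.7 CPM to 90.3, 84.7 and 81.2 CPM (log2 1.10 ± 0.09). GPA2, the G protein of the glucose receptor, fell by 1.19. RAS1 rose from 50.8, 39.3 and 25.7 CPM to 148, 144 and 141 CPM, and PDE2, a cAMP phosphodiesterase gene, and MSN4, a stress activator gene, rose by 1.80 and 2.47. Scaled by library size, 6 genes were higher and 1 was lower, so the falls in this list depend on the scaling.

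Few transcripts of TORC1 and its effectors were called. Of 24 tested, 0 were called higher (13.8% of all genes) and 2 lower (8.33%, against 5.91% of all genes). At any fold 8 passed upward and 9 downward. The kinase gene TOR1 fell from 471, 546 and 452 CPM to 260, 246 and 201 CPM (log2 −1.05 ± 0.11), and the call was lost without the 0 min replicate B or the 10 min replicate C and under library size scaling. NNK1, a kinase gene linked to nitrogen signalling, fell from 272, 332 and 350 CPM to 85.7, 88.1 and 103 CPM (log2 −1.78 ± 0.11). The others were not called, with GTR2, a GTPase that activates the complex, at 0.98 and the GATA factor gene GAT1 at 0.97. Scaled by library size, 3 genes of this list were called higher.

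Some transcripts of carbon storage and of the use of poor carbon sources were called lower. In the list of gluconeogenesis, the glyoxylate cycle and non-fermentable carbon, 7 of 27 genes were called lower (25.9%, against 5.91% of all genes) and 2 higher. ADY2, an acetate transporter gene, fell from 1225, 999 and 1100 CPM to 339, 309 and 333 CPM, and STL1, a glycerol transporter gene, from 83.6, 88.9 and 233 CPM to 29.8, 33.4 and 61.5 CPM. CIT2, the citrate synthase of the glyoxylate cycle, rose by 1.13 and ATO2 by 4.07. Of the genes the study grouped under gluconeogenesis 7 of 22 were lower and 0 higher, with CSR2 at −1.79 after RGI2. This class, too, came from the earlier report. In trehalose and glycogen metabolism 5 of 22 were lower and 1 higher, with 8 lower without the 0 min replicate A, 3 without the 10 min replicate A and 2 when scaled by library size. TPS1 and TPS2, which make trehalose, fell from 864, 890 and 937 CPM to 278, 307 and 368 CPM and by 1.40 on the log2 scale.

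Of 26 glycolysis and fermentation genes 3 were called lower (11.5%) and 2 higher (7.69%), with a median log2 change of −0.73, and 1 was lower when scaled by library size. The enolase gene ENO1 fell from 7828, 7930 and 9984 CPM to 2880, 3368 and 3634 CPM. PGK1, the phosphoglycerate kinase gene, and ADH1, the alcohol dehydrogenase gene of fermentation, fell by 1.12 and 1.03, and both calls were lost under library size scaling, that of ADH1 also without the 10 min replicate C. PFK27, which makes the activator fructose 2,6-bisphosphate, rose from 24.8, 17.0 and 16.2 CPM to 190, 158 and 160 CPM (log2 3.12 ± 0.15). In the tricarboxylic acid cycle 2 of 17 genes were lower (11.8%, against 5.91% of all genes), MDH1 and SDH2, and 1 was higher (5.88%, against 13.8%). In fatty acid oxidation 3 of 21 were lower (14.3%) and 2 higher (9.52%). Of the higher ones CRC1 is the mitochondrial carnitine carrier gene (1.31) and DCI1 a peroxisomal enoyl-CoA isomerase gene (1.10).

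Protective transcripts differed in their share of falls, from 53.8% in the dehydration list and 40.0% among antioxidant genes to 14.7% among chaperones, against 5.91% of all genes. Of 26 tested dehydration and stationary-phase transcripts 14 were called lower (53.8%) and 0 higher, with a median log2 change of −1.03. Leaving out single libraries gave 11 to 18, and scaling by library size gave 7. Besides RTC3, RGI2 and TMA10, TFS1, an inhibitor of carboxypeptidase Y, fell from 454, 499 and 546 CPM to 120, 147 and 171 CPM. Of 30 antioxidant genes 12 were lower (40.0%) and 1 higher, and 5 were lower when scaled by library size. GSH1, the first enzyme of glutathione synthesis, fell from 766, 984 and 913 CPM to 235, 264 and 264 CPM (log2 −1.80 ± 0.11), and the superoxide dismutase genes SOD1 and SOD2 fell by 1.5 and 1.55. GRX3, a glutaredoxin of iron regulation, rose by 1.29.

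Chaperone transcripts moved both ways. Of 34 heat shock protein and chaperone genes 5 were lower (14.7%, against 5.91% of all genes) and 2 higher (5.88%, against 13.8%). Their median was −0.27, or 0.06 when scaled by library size, where none was called lower. HSP12, a membrane protein of stress tolerance, fell from 8531, 8617 and 8908 CPM to 3369, 4059 and 3515 CPM, and the small heat shock protein gene HSP26 fell by 1.27, a call lost without the 0 min replicate C. YDJ1, an Hsp40 cochaperone gene, rose from 192, 102 and 86.7 CPM to 712, 582 and 617 CPM, and SSE1, a nucleotide exchange factor gene of Hsp70, rose by 1.99. Of the 18 stress genes displayed by the study 12 were lower and 0 higher, led by TFS1, SOL4 (−1.77), an enzyme of the pentose phosphate pathway, and PNC1 (−1.77), a nicotinamidase. They, too, came from the earlier report. Proteasome subunits, in contrast, had 1 of 34 members called, RPN8 at −1.10, while 28 passed the test downward at any fold.

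The stress response element (STRE, AGGGG on either strand), bound by Msn2 and Msn4, was found in 183 of 329 promoters of genes called lower (55.6%), in 15.3% of those of genes called higher and in 23.9% of all genes tested. Genes with a high spore level had it more often in any case: in the highest of the 5 groups by spore level, 62.3% of the genes called lower and 31.8% of the uncalled genes held it. The windows of RTC3 (chrVIII:280420-280719, plus strand) and TMA10 (chrXII:783488-783787, minus strand) are shown because these genes were among the 3 largest falls and hold the element. The window of SPG1, another of the 8 largest falls, holds no match.
RTC3: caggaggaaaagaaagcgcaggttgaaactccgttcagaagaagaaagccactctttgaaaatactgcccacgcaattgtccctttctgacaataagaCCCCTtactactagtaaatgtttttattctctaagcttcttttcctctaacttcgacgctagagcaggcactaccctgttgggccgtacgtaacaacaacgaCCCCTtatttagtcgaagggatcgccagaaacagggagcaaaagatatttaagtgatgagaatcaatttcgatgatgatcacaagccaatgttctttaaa
TMA10: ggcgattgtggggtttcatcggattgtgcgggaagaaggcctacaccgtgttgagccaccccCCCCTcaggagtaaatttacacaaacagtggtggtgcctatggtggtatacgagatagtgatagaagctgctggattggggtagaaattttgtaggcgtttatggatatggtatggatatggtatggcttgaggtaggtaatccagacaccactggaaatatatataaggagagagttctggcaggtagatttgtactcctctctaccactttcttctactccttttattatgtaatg
Capitals mark the element and its reverse complement, at 302 and 200 bases before the start codon in RTC3 and at 338 bases in TMA10. These matches describe letters and not bound sites.

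Genes of meiosis and spore formation moved in both directions. The abundant SPS100 fell from 10592, 12207 and 14735 CPM to 3969, 5167 and 5854 CPM (log2 −1.32 ± 0.17, a call lost under library size scaling), whereas SPS1, a kinase gene of spore wall formation, rose from 4.42, 3.77 and 8.40 CPM to 29.3, 21.9 and 28.4 CPM and SPO21, a component of the meiotic spindle pole body, rose from 12.5, 12.3 and 11.6 CPM to 54.2, 45.4 and 49.3 CPM. Of 28 meiosis genes 5 were higher (17.9%) and 2 lower (7.14%), near the 13.8% and 5.91% of all genes. RIM4, a translational repressor gene of meiosis, rose from a mean of 116 ± 38.1 CPM to 687 ± 25.2 CPM (SD, n = 3), and RIM11, a kinase gene of meiotic entry, fell by 1.14.

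In the lists on the cell cycle, mating and the cell wall the shares called lay mostly near those of all genes (13.8% higher, 5.91% lower). AMN1, an inhibitor of mitotic exit, and CDC20, an activator of the anaphase-promoting complex, rose from 32.4, 23.9 and 28.0 CPM to 262, 234 and 228 CPM and from 48.6, 31.4 and 33.8 CPM to 211, 193 and 173 CPM. CLN3, the first G1 cyclin, rose by 1.60 from 3.64, 5.07 and 7.0 CPM. Of 10 histone genes 0 were higher and 1 was lower (HTA1, −1.11). Among 21 genes of mating type and pheromone response 3 were higher (14.3%) and 0 lower, including STE12, the transcription factor gene of the pathway (1.5), and STE5, its scaffold gene (1.31). In the cell wall list 3 of 36 genes were higher (8.33%), with the glucanase gene EXG1 at 2.10, and 2 lower, with the chitin synthase gene CHS1 at −1.31. The call of CHS1 was lost without the 0 min replicate A.

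**Figure D3:**
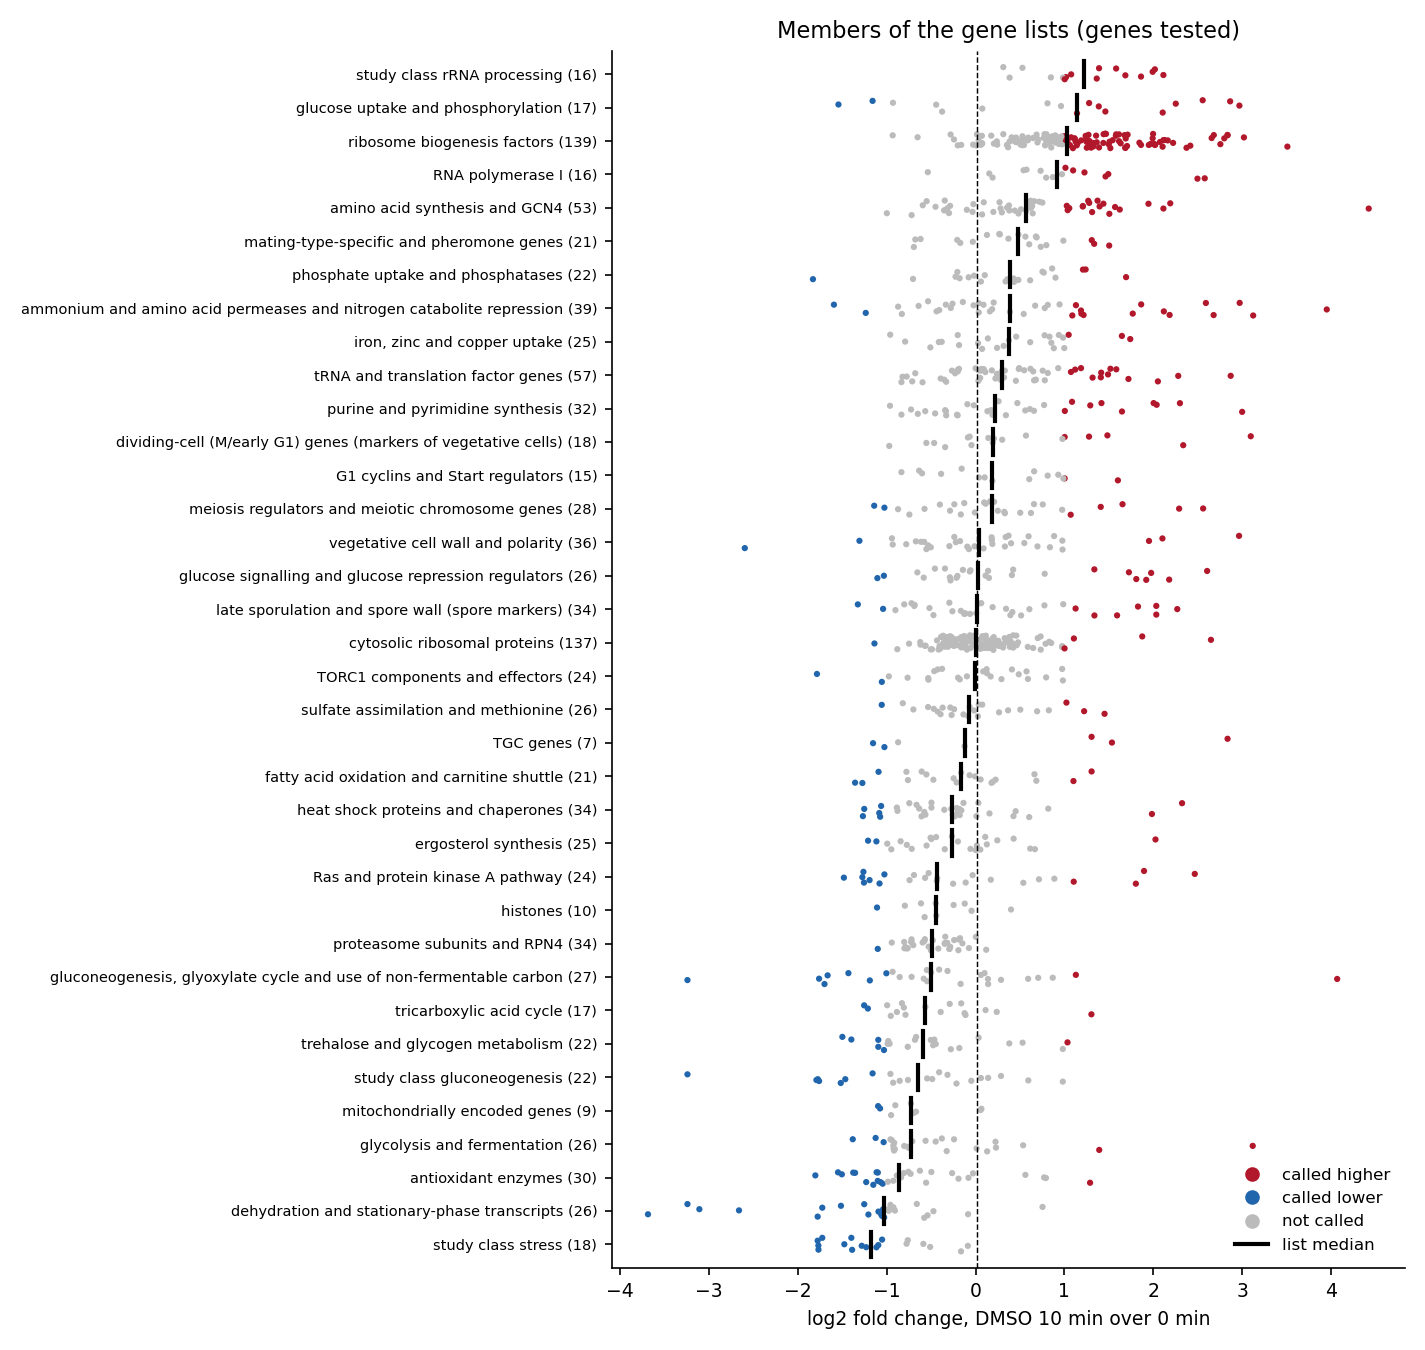
Log2 fold change from 0 to 10 min of each tested member of the gene lists, with the number tested in brackets. Red points were called higher and blue points lower, black bars are list medians and the dashed line is the median of all genes (0.02). The lists are sorted by median, from the stress genes displayed by the study (−1.17) and dehydration transcripts (−1.03) at the bottom to the glucose uptake list (1.14) and the rRNA processing genes displayed by the study (1.22) at the top.

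The 7 genes that the study followed as targets shared by TORC1 and glucose (TGC genes) were split at 10 min. GFD2, a gene linked to mRNA export, rose from 6.88, 10.0 and 12.6 CPM to 25.7, 19.2 and 39.9 CPM, DHR2 rose by 2.84 and CRC1 by 1.31. GPG1, a G protein subunit gene, and RME1, a repressor gene of meiosis, fell by 1.15 and 1.02, and both calls were lost under library size scaling. That of RME1 was also lost without the 10 min replicate A or the 0 min replicate C. UGA1, the GABA transaminase gene, had a log2 change of −0.87, and CIT1, the mitochondrial citrate synthase gene, one of −0.12 (0.21 when scaled by library size), and neither was called. The actin gene ACT1, a common reference, was not called (log2 −0.16, or 0.17 when scaled by library size) and was at 668 ± 81.0 CPM and then at 597 ± 39.1 CPM.

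With rapamycin in the medium the first 10 min gave largely the same calls. The study places the inhibition of TORC1 by the drug in spores at a later time than this step. It saw no significant difference between the arms at the next time point. It proposes that the spore wall may limit uptake of the drug. Whether TORC1 was inhibited in these libraries was not tested. The arms share no library, but libraries of the same letter deviated together from their group means across the arms (correlations of 0.71, 0.55 and 0.47 at 0 min and 0.61, 0.53 and 0.58 at 10 min for A, B and C), so the arms may not be independent. In the 6 rapamycin libraries 1146 of 5841 genes were called (19.6%), 789 higher (13.5%) and 357 lower (6.11%). Of 5818 genes tested in both arms, 1143 were called with DMSO and 1141 with rapamycin, and 1000 were called in both, all in the same direction. These are 87.5% of the DMSO calls and 87.6% of the rapamycin calls. The median absolute difference between the log2 changes was 0.09, and across genes, which are not independent replicates, Pearson's r was 0.98. The changes with rapamycin were 4.46 for GDH1, 4.15 for GAP1, 3.58 for DBP2, −3.69 for RTC3 and −3.10 for TMA10. Ribosome biogenesis genes had 71 of 139 members higher and 1 lower with rapamycin, and the dehydration list 0 higher and 13 of 26 lower.

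The difference between the arms was tested in a single fit of the 12 libraries of both steps, as a time effect that depends on the drug. With edgeR's quasi-likelihood test 0 of 5886 genes (0%) were called. The smallest adjusted p was 0.9998, 58 genes had an unadjusted p under 0.05, and DESeq2 also called 0, with 51 genes at that level. With the replicate letter as a block the count remained 0, with 172 genes at that level. A lack of calls does not show that the steps were alike in every gene. Of the 1143 genes called with DMSO, 1141 had the same sign with rapamycin. The other 2, named after their values were seen, were scarce: IMA3, an isomaltase gene with close copies, at 2.97 ± 0.987 and 0.44 ± 0.452 CPM with DMSO, and YLL059C at 1.36 ± 0.635 and 2.84 ± 0.322 CPM.

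**Figure D4:**
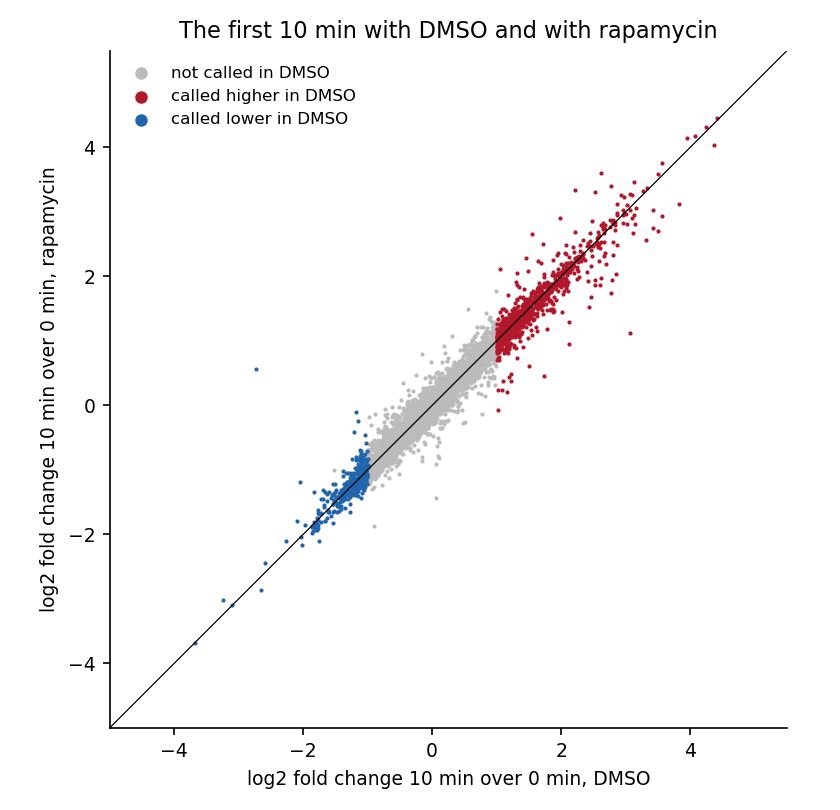
Log2 fold change from 0 to 10 min of each gene tested in both arms, with DMSO on the horizontal and with rapamycin on the vertical axis. Red and blue points were called higher and lower with DMSO, and the line marks equal change. The 1000 genes called in both arms lie in the upper right and lower left, and the blue point far above the line is IMA3.

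The changes of the first 10 min were followed by different courses. The next comparison, 30 min against 10 min, shares the 10 min libraries with this one, so the values are given side by side and were not tested against each other. It had 635 genes called higher and 522 lower of 5853 tested. Averaged over 3 libraries and scaled over all 45 libraries, GDH1 was at 26.5, 34.5, 708 and 2778 CPM in spores and at 0, 10 and 30 min, and fell back to 650 CPM at 60 min. GAP1 went from 60.1 CPM at 0 min to 883 CPM at 10 min, 2881 CPM at 30 min and 119 CPM at 60 min. ATO2 was about level between 10 and 30 min, at 1447 and 1480 CPM, and was at 8.82 CPM at 360 min. Among the falling genes RTC3 went from 663 CPM at 0 min to 48.9 CPM and 6.39 CPM at 10 and 30 min, and TMA10 from 2006 CPM to 221 CPM and 80.1 CPM. HXT5 fell at every later time point, to 29.9 CPM at 360 min.

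Other lists changed mainly after 10 min. For cytosolic ribosomal proteins the median log2 change was 0.01 in the first step and 1.27 in the next, with 4 and 109 of 137 called higher. For sulfate assimilation and methionine genes the medians were −0.08 and 1.72, with 3 and 22 of 26 called higher. HXT3 was at 22.8, 47.7, 607 and 1038 CPM at 0, 10, 30 and 60 min, while RGT2, at 46.4, 260, 285 and 253 CPM, had reached its level by 10 min. AMN1 was at 25.6 CPM at 0 min and had its highest mean before 360 min at 10 min, 209 CPM.

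**Figure D5:**
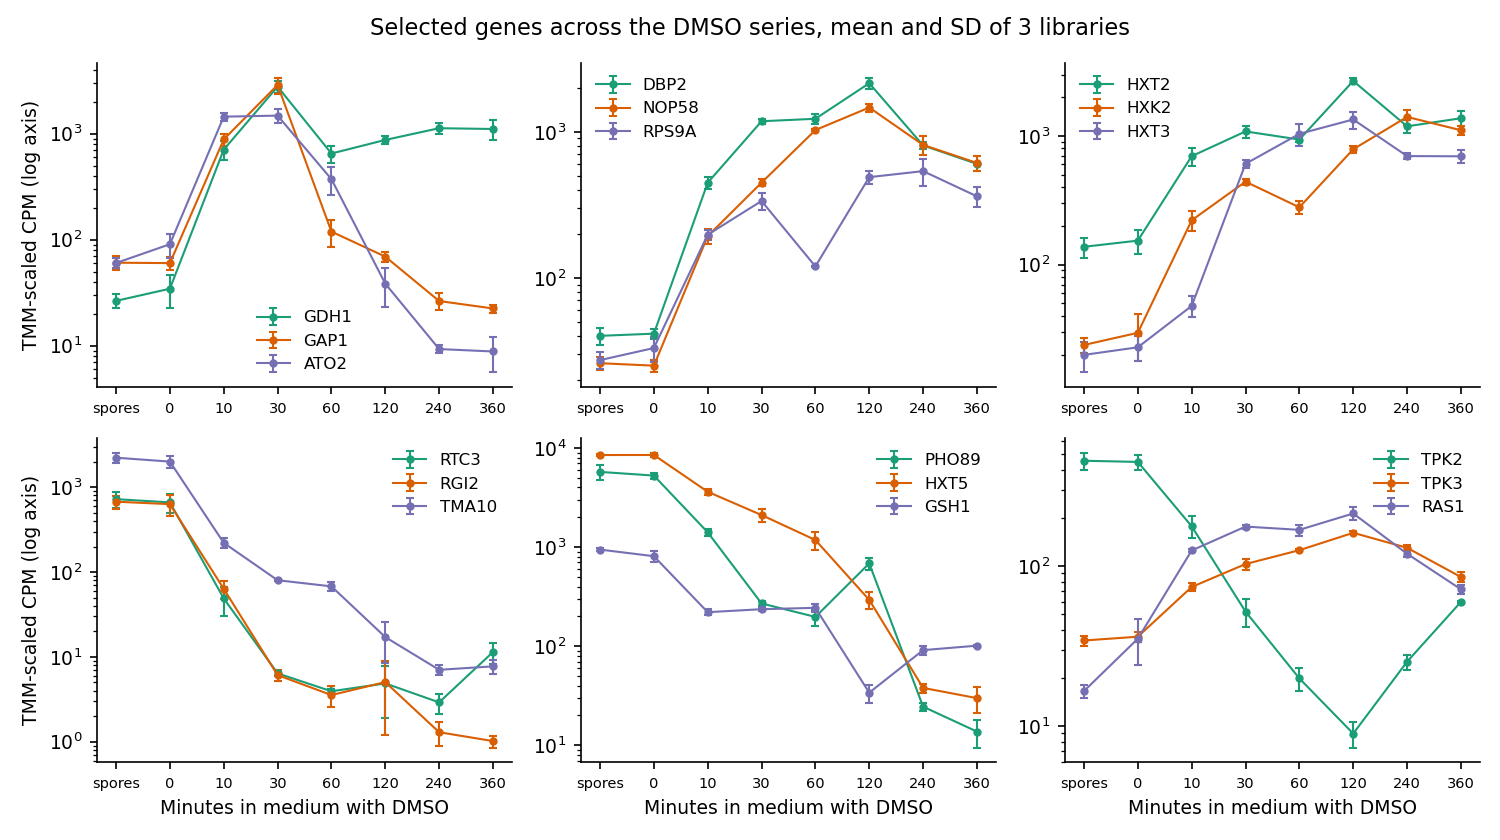
Mean CPM (log axis) of 18 named genes in purified spores and at 0 to 360 min in medium with DMSO, with the SD of 3 libraries as error bars. Lower bars that would reach 0 are cut short. GAP1 peaks at 30 min, RTC3 and TMA10 fall between 0 and 60 min, and RPS9A, HXT2 and HXK2 stay above their spore level.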

How the data were processed

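RNA was measured in 45 libraries of SK1 yeast spores, in 15 groups of 3. The authors made the deposited table of raw counts per gene from single-end reads, trimmed with Trimmomatic 0.33, aligned to an SK1 genome with hisat2 and counted by strand with HTSeq on an Ensembl annotation of R64. The table held 6723 genes, 139 of them without a read, and library totals of 7736397 to 14522407 counts. Of the identifiers 6039 matched RefSeq R64 (S288C), the source of symbols, coordinates and promoter letters.

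Groups were taken from the labels. The counts were scaled with TMM in edgeR 4.0.16 (on R 4.3.3, beside limma 3.58.1) and tested with its quasi-likelihood test with Benjamini-Hochberg adjustment, on genes over 1 CPM in at least 3 libraries. Each step was fitted on its own 6 libraries and the difference of the steps on 12. A call needed an adjusted p under 0.05 and at least a 2-fold change. With 3 against 3 libraries an exact two-sided permutation test cannot go below p = 0.1, so none was used. Alternatives were library size and RLE scaling, no filter or 5 CPM, DESeq2 1.42.0, edgeR's exact test, any fold, glmTreat, all libraries in the fit, a replicate block and leaving out each library. The scripts were tested on simulated data. Deviations from the group means correlated between 0 and 10 min libraries of the same letter (0.23, 0.37 and 0.38 for A, B and C), so libraries of the same letter may be paired. The main fits, and the p-values and calls given, did not use this pairing. It entered only in the alternative with the replicate block.

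The comparison and the gene lists were chosen with earlier results of these data known. Genes named were the 8 largest rises and 8 largest falls among called genes without overlap and with at least 20 CPM in the higher group, the TGC genes, ACT1, GAP1 and DIP5, the 3 called members of each list with the largest rise and fall, and any member of the lists on glucose uptake, glucose signalling, Ras and PKA, and TORC1. Other names were chosen after their values were seen, as were the markers DIT1 and CLB2. Some items were withheld and are not reported here.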

Additional observations from a re-analysis of the deposited data

How the results depend on the processing

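Without a fold minimum 4254 genes passed in the DMSO step (2201 higher, 2053 lower) and 4066 in the rapamycin step (2098 and 1968), and with glmTreat against 2-fold 640 (496 and 144) and 618 (479 and 139). Library size scaling gave 1321 higher and 112 lower with DMSO and 1253 and 123 with rapamycin. Under it the log2 change of ACT1 moved from -0.16 to 0.17 that of CIT1 from -0.12 to 0.21 and that of CLB2 from -0.07 to 0.27, and the medians of the lists on heat shock proteins, fatty acid oxidation, ergosterol synthesis, sulfate assimilation, TORC1 and TGC genes turned from below to above 0. Without single libraries CIT1 ranged from -0.24 to 0.022 and CLB2 from -0.23 to 0.28. Leaving out single libraries gave 1034 to 1232 calls with DMSO, 724 to 863 higher and 310 to 390 lower, and 1064 to 1234 with rapamycin, 732 to 854 higher and 332 to 380 lower. The other settings, namely RLE scaling, both filters, DESeq2, the exact test and all libraries in the fit, moved each of these counts by less than 1.5 times. With the replicate block 1151 genes were called with DMSO and 1159 with rapamycin, and 1145 of the 1149 DMSO calls remained. The difference between the steps had 0 calls in every setting run, with a smallest adjusted p between 0.642 and 1. Genes near 1 CPM, such as HXT17, limit the depth: its call was lost with DESeq2 and without any of the 10 min libraries.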

Other observations

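The transcripts that were most abundant at 0 min, chosen here for their level after the values were seen, were all lower at 10 min. The same 0 min libraries are the baseline of the change, so this choice favours a fall. GRE1, a hydrophilin induced by drying, had a mean of 35525 CPM at 0 min and 15411 CPM at 10 min (log2 -1.21). SIP18, a related desiccation protein gene, went from 10751 to 5043 CPM and MSC1 from 10735 to 4957 CPM, and these were called. TDH3, a glycolytic dehydrogenase gene, had 11405 and 5936 CPM and was not called (log2 -0.94). HBT1 (log2 -0.92) and FBA1 (log2 -0.71), also among these transcripts, were not called either.

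Of 9 tested genes encoded in mitochondria, whose transcripts are not reliably captured by poly-A enrichment, 0 were called higher and 2 lower with DMSO (22.2%, against 5.91% of all genes). With rapamycin 8 were lower, against 6.11% of all genes. The median log2 changes were -0.73 with DMSO and -1.14 with rapamycin, and the test of the difference between the arms called 0 genes. COX1 and AI5_BETA, the 2 called with DMSO, overlap on the same strand over 1100 bases. The DMSO count ran from 0 to 4 when single libraries were left out.

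Among the 0 min libraries replicate A stood slightly toward the 10 min profile. Over the 784 genes called higher in the rapamycin step, whose libraries it is not part of but whose replicate A deviates with it, its median was 0.16 on the log2 scale above the other DMSO 0 min libraries, and it was the highest of the 3 in 58.0% of these genes against 38.2% of all genes. The 0 min replicate A of the rapamycin arm stood 0.14 above its group over the genes called higher with DMSO. Without the DMSO 0 min replicate A 1232 genes were called, 863 higher and 369 lower, and 1101 of the 1149 calls remained. Its part in the results was not tested.

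Identifiers without a match in RefSeq made up 7.09% of the genes called higher and 3.36% of the genes tested. They were not annotated further.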
